A study of Mus musculus with 30 samples.

Results

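The genes described here are those that make, carry and break down the endocannabinoids, together with *Cnr1*, which encodes their main receptor in neurons. The 9 members were chosen by symbol, as *Cnr1*, *Faah*, *Mgll*, *Dagla*, *Daglb*, *Napepld*, *Abhd6*, *Abhd12* and *Fabp5*, and each had 1 row among the 56941 Ensembl genes of the count files. The cells were mHypoA-2/12, an immortalized line from adult mouse hypothalamus, treated with cannabidiol (CBD) at 0.325, 0.75, 1.5 or 3 µM or with vehicle, for 6 h or 24 h. Vehicle was 0.1% DMSO in the culture medium, and CBD is the main non-intoxicating compound of *Cannabis sativa*. The transcriptome was read by 3′mRNA-Seq (QuantSeq), which gives 1 fragment near the 3′ end of each polyadenylated transcript, in 30 libraries named A1 to A30. They form 10 groups of 3, with vehicle in A1 to A3 (6 h) and A28 to A30 (24 h). The labels do not say that the 3 libraries of a group were separate cultures, so the tests measure a spread between libraries that may be technical, within 1 cell line.

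Endocannabinoids are lipids that cells make on demand from membrane phospholipids. 2-arachidonoylglycerol (2-AG) is formed by the diacylglycerol lipases Dagla and Daglb and is hydrolysed by Mgll, Abhd6 and Abhd12. Anandamide is formed through Napepld and other routes and is hydrolysed by Faah, to which carriers such as Fabp5 deliver it inside the cell. In the hypothalamus this system acts on CB1, the product of *Cnr1*, and is known for its part in feeding and energy balance. CBD has been described as an inhibitor of Faah and as a ligand of fatty acid binding proteins, and transcript counts do not show either action.

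Reads on genes ranged from 1839621 to 4420675 per library, with a median of 2641725, and the share of uniquely mapped reads outside genes ranged from 17.7% to 22.2%. Among the 30 pairs of replicates, the vehicle libraries A1 and A3 of 6 h were the least alike, with a chi-square per gene of 12.0, while the most alike pair was at 2.15. A3 had 3574833 reads on genes and 17.9% of reads outside genes, against 1839621 and 21.4% in A1 and 1919498 and 20.8% in A2. Some results of the members are given with and without A3, and those of other single genes only with it. The neuronal markers *Tubb3* (49.1 ± 8.55 CPM, counts of a gene scaled to the normalized size of its library, SD, n = 30) and *Map2* (23.2 ± 7.42 CPM) were present, while *Snap25* had 4 reads and *Rbfox3* had 47 reads over all libraries. Of 13 hypothalamic peptide genes, 1 (*Gnrh1*) passed the filter on low counts and 4 had no read. Of the mesenchymal markers, *Vim*, *Acta2* and *Col1a1* had 2198, 2111 and 2053 CPM, and *Lum*, *Dcn* and *Tagln* had 1.16, 16.6 and 33.6 CPM, not scaled to gene length. The 10 of that list summed to between 8243 and 10724 CPM, against 153 to 228 CPM for the 12 neuronal markers. The summed markers ranged from 2.21 to 19.9 CPM for astrocytes, from 49.5 to 98.1 CPM for the oligodendrocyte lineage, from 154 to 367 CPM for microglia, of which *Tmem119* made up most, and from 0 to 2.94 CPM for endothelium. Of the 12 neuronal markers, 7 passed the filter on low counts in the 30 libraries, as did 9 of the 10 mesenchymal markers. Their part in the levels below was not tested.

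No read of *Cnr1* (ENSMUSG00000044288, chr4:33924593-33948831, plus strand) was counted in any of the 30 libraries. Positions here are those of GRCm38, an older build than that of the counts. Over 84273080 reads on genes, a count of 0 allows up to 3 reads, or 0.0356 CPM. In a single library the same floor lies between 0.679 and 1.63 CPM, and these floors cover counting error only. *Cnr1* transcripts that end outside the annotated gene would not have been counted. No change of *Cnr1* with CBD could be measured in this line at this depth.

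Among the receptors read here, the others that couple to G proteins or form channels were also at or near 0. *Cnr2* (the CB2 receptor), *Gpr55*, *Gpr119* and *Trpv1* (the capsaicin channel) had no read in any library. *Gpr18* had 13 reads in 6 libraries. Of the nuclear receptors that bind acylethanolamides or their relatives, *Ppara* had 7 reads, *Pparg* was at 3.64 ± 2.26 CPM (SD, n = 30) and *Ppard* was at 31.8 ± 6.11 CPM. Downstream of CB1, the inhibitory G protein subunit *Gnai2* was at 1203 ± 184 CPM and *Cnrip1*, which encodes a protein that binds the tail of CB1, was at 7.25 ± 2.58 CPM. The line thus had transcripts of CB1 partners without a read of the receptor itself.

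**Figure D1:**
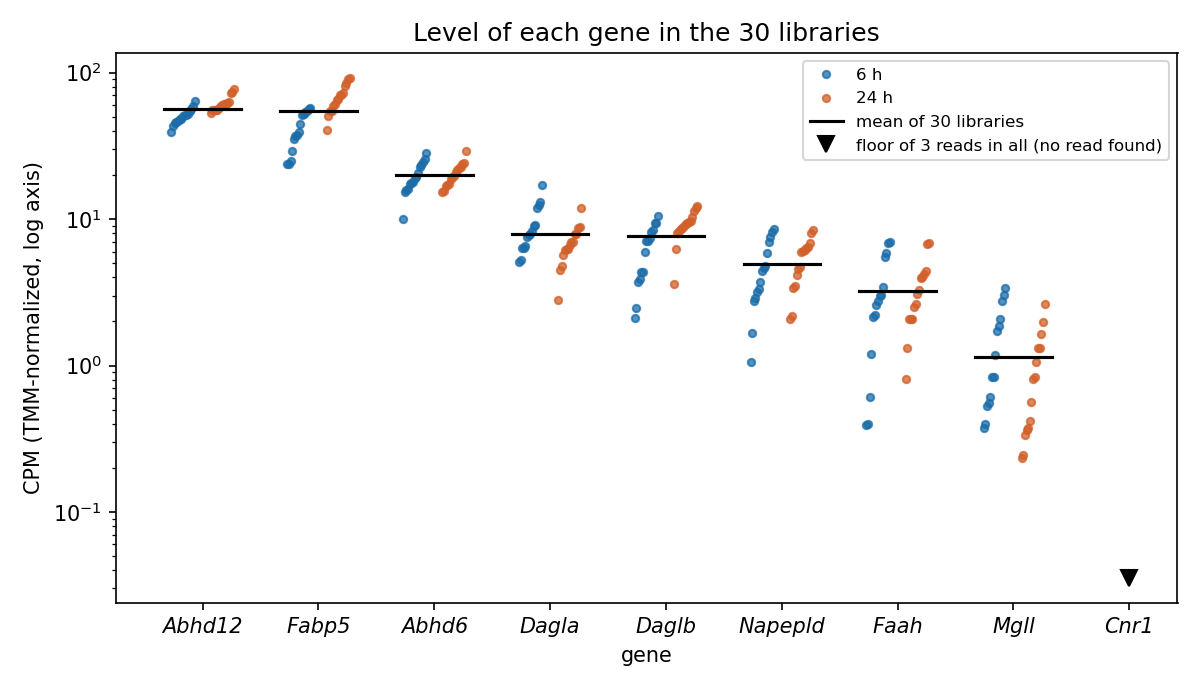
Level of each of the 9 genes in the 30 libraries, in TMM-normalized CPM on a log axis. Points are libraries of 6 h (blue) and 24 h (orange), bars are means over 30 libraries, the 1 library with no *Mgll* read is not drawn, and the triangle is the floor of 3 reads over all libraries for *Cnr1*, at 0.0356 CPM. *Abhd12* and *Fabp5* lie near 55 CPM, the enzymes that form the ligands lie between 4.95 and 7.87 CPM, and *Mgll* lies near 1.14 CPM.

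The 8 genes with reads spanned a wide range of levels, with *Abhd12* and *Fabp5* first and *Mgll* last. Because the kit gives 1 fragment per transcript, CPM was not divided by gene length, and levels of different genes were compared on that scale. *Abhd12* (56.1 ± 8.88 CPM, SD, n = 30) and *Fabp5* (54.6 ± 18.96 CPM) were the highest, and either was above the other in 15 of 30 libraries. *Abhd6* followed at 19.96 ± 4.17 CPM, below *Fabp5* in 30 of 30 libraries although their ranges overlapped. *Dagla* (7.87 ± 2.96 CPM) and *Daglb* (7.69 ± 2.78 CPM) did not differ beyond their spread. *Napepld* was at 4.95 ± 2.13 CPM, and *Faah*, at 3.24 ± 1.98 CPM, was lower than *Napepld* in 22 of 30 libraries. *Mgll* was the lowest gene with reads, at 1.14 ± 0.915 CPM. The coefficient of variation over libraries was 34.8% for *Fabp5*, where counting alone would give 7.89%, and 15.8% for *Abhd12*, where counting alone would give 7.95%. For *Faah* and *Mgll* it was 61.1% and 80.2%, with 33.03% and 56.8% from counting.

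CBD was then compared with vehicle in 15 libraries at each time. Of the 9 members, 7 passed the filter on low counts at both times, and *Cnr1* and *Mgll* did not. With the quasi-likelihood test of edgeR and Benjamini-Hochberg adjustment over all genes (FDR below 0.1), 0 of the 7 changed with the 4 doses as 1 group at 6 h or at 24 h. The share of all tested genes called in these comparisons was 0.749% at 6 h and 0.107% at 24 h. At an unadjusted p below 0.05, 1 of 7 (*Napepld*) passed at 6 h, beside 10.3% of all genes, and 0 of 7 passed at 24 h, beside 6.73%. The median log2 fold change of the 7 members was 0.20 at 6 h and 0.13 at 24 h, where the median of all genes was -0.02 and -0.01. DESeq2 called 0 members in the same comparisons.

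Single doses gave no call either. From the lowest dose to the highest, 0 of 7 members had an FDR below 0.1 in edgeR or DESeq2, at 6 h (0.2%, 0.0749%, 0.0999% and 0.05% of all genes called by edgeR) and at 24 h (0.066%, 0.0825%, 0.0413% and 0.00825%). At an unadjusted p below 0.05, 1, 2, 0 and 1 members passed at 6 h at these doses, beside 8.8%, 7.79%, 7.91% and 7.26% of all genes. At 24 h the counts were 1, 1, 0 and 0, beside 8.33%, 7.63%, 7.34% and 9.16%. A linear trend over vehicle and the 4 doses in equal steps called 0 of 7 at 6 h (0.0333% of all genes) and at 24 h (0.00825%). At an unadjusted p below 0.05, 1 of 7 passed this trend at 6 h, beside 6.09% of all genes, and 0 of 7 at 24 h, beside 8.84%. These comparisons share the 3 vehicle libraries of their time. For no member did all 12 CBD-treated libraries lie on the same side of the 3 vehicle libraries, which 1.45% of tested genes showed at 6 h and 0.611% at 24 h. Some single doses described below have all 3 libraries on 1 side of the 3 vehicle libraries. The share of all genes that did so at a single dose was not counted. A test of any difference among the 5 groups, added after the values were seen, called 0 of 7 at 6 h (0.0583% of all genes) and at 24 h (1.36%), with 1 of 7 and 2 of 7 at an unadjusted p below 0.05, beside 5.96% and 13.8% of all genes.

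**Figure D2:**
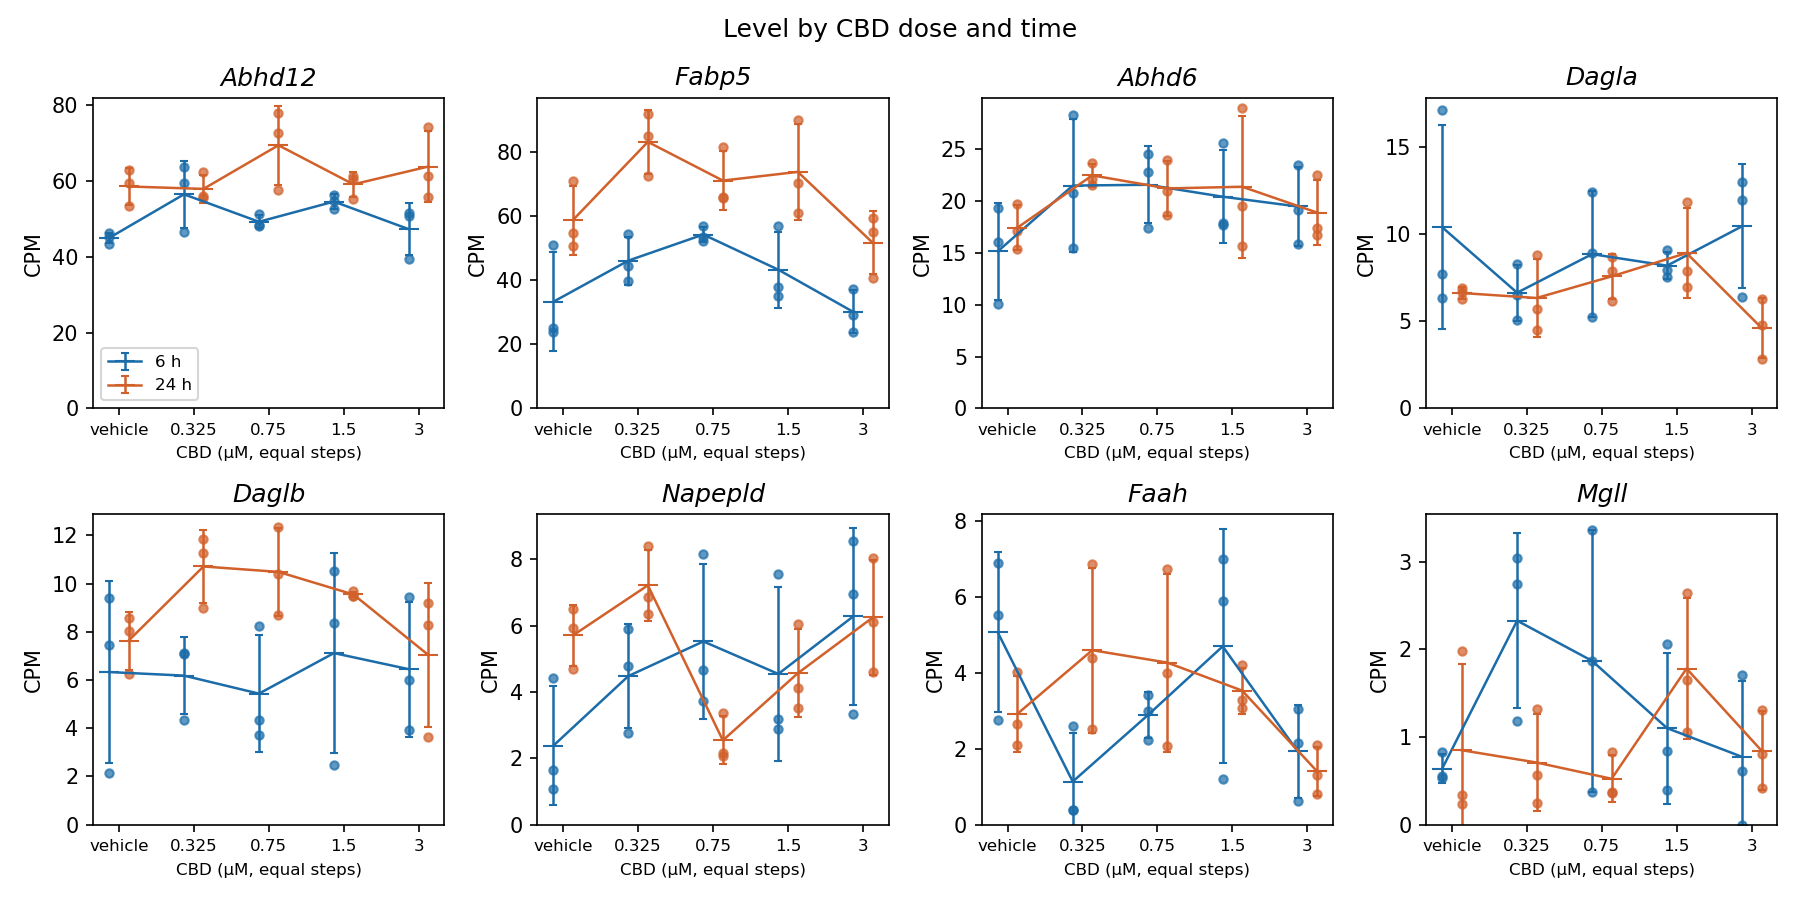
Level of the 8 genes with reads by dose of CBD, in CPM on a linear axis from 0. Points are single libraries of 6 h (blue) and 24 h (orange), lines join the means of 3 libraries, and error bars are SD, cut at 0. *Fabp5* and *Abhd12* sit higher at 24 h than at 6 h, and no gene runs steadily up or down over the doses at both times.

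Among the hydrolases of 2-AG, *Abhd12* (ENSMUSG00000032046, chr2:150832493-150904741, minus strand) was the best measured. Its product is a membrane serine hydrolase that also acts on lysophosphatidylserine. The vehicle libraries of 6 h were at 45.4, 46.2 and 43.4 CPM, and the 12 CBD-treated libraries ran from 39.3 to 63.6 CPM with a median of 51.5 CPM. The vehicle libraries were close to each other, and of the CBD-treated libraries only A4, at 39.3 CPM, lay below them. The other CBD-treated libraries lay above all vehicle libraries, the lowest of them A15 at 46.5 CPM. The log2 fold change for the 4 doses together was 0.20 (SE 0.14, 95% interval -0.08 to 0.49, edgeR FDR = 0.674). At 24 h, vehicle was at 53.3, 59.4 and 63.0 CPM and CBD ran from 55.4 to 77.9 CPM with a median of 61.0 CPM. Here the groups overlapped almost wholly, and the log2 fold change was 0.09 (SE 0.12, 95% interval -0.15 to 0.33, edgeR FDR = 0.947). That interval holds the change between 0.9-fold and 1.26-fold.

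*Abhd6* (ENSMUSG00000025277, chr14:8002902-8056763, plus strand) encodes a hydrolase that faces the inside of the membrane of neurons. In vehicle at 6 h it was at 19.4, 10.1 and 16.02 CPM, and in CBD-treated cells it ran from 15.4 to 28.3 CPM with a median of 19.96 CPM. Only A2 lay below all CBD-treated libraries. *Abhd6* had a log2 fold change of 0.44 (SE 0.23, 95% interval -0.04 to 0.92, edgeR FDR = 0.544) at 6 h and 0.25 (SE 0.18, 95% interval -0.12 to 0.63, edgeR FDR = 0.887) at 24 h. At 6 h it ran from 0.24 without A2 to 0.62 without A1. The fitted change of *Abhd6* was above 0 at each dose of both times, with 1 vehicle group per time behind all 4 doses. A processed pseudogene, *Gm1833*, matches 280 bases of the last 500 of *Abhd6* at 98.2% identity and had no read. How reads common to both were counted was not tested.

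*Mgll* (ENSMUSG00000033174, chr6:88724412-88828360, plus strand) encodes monoacylglycerol lipase, the enzyme that removes most 2-AG in brain. It had 93 reads in all, 0 to 9 per library, and was found in 29 of 30 libraries. In vehicle it had 1, 1 and 3 reads at 6 h and 1, 6 and 1 reads at 24 h. The 12 CBD-treated libraries had 47 reads at 6 h and 33 reads at 24 h. At 6 h these were 17, 16, 8 and 6 reads from the lowest dose to the highest, and at 24 h they were 9, 4, 14 and 6 reads. The 3 libraries at 0.325 µM of 6 h, at 1.19, 2.75 and 3.04 CPM, were above the vehicle libraries, at 0.553, 0.531 and 0.829 CPM, from 3, 7 and 7 reads against 1, 1 and 3. At the other doses of 6 h the groups overlapped. *Mgll* was below the filter of the test, so its change was read as a share of the reads of the 3 hydrolases of 2-AG in the same library. That share was 1.42% over all libraries (93 reads, exact binomial 95% interval 1.15% to 1.74%, counting error only). At 6 h it was 1.99% ± 1.41 (SD, n = 12) with CBD and 1.05% ± 0.283 (SD, n = 3) with vehicle, a difference of 0.941 percentage points (exact two-sided permutation test, p = 0.297, 455 splits). At 24 h it was 1.15% ± 0.814 with CBD and 1.09% ± 1.24 with vehicle, a difference of 0.0636 percentage points (exact two-sided permutation test, p = 0.921). The smallest p these 455 splits can give is 0.0022. The 6 h difference was smaller than the spread of the CBD-treated libraries, which ran from 0% to 4.35%. *Abhd6* took 26.3% of the reads of *Abhd6* and *Abhd12* together (25.2% to 27.4%), so *Abhd12* held most of the hydrolase reads in this line.

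**Figure D3:**
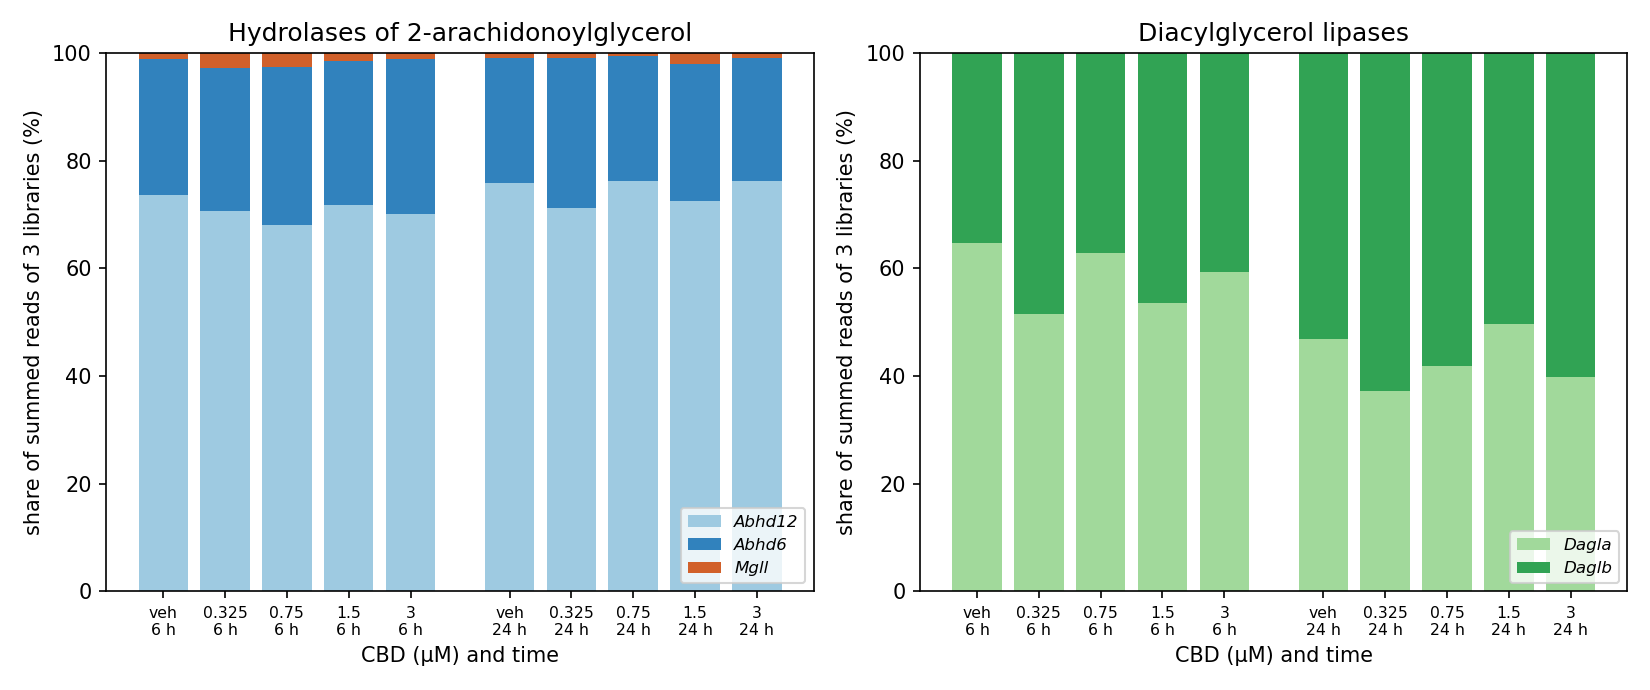
Share of each gene in the summed reads of 3 libraries per group, for the hydrolases of 2-AG (left) and the diacylglycerol lipases (right), in percent by CBD dose and time (veh, vehicle). *Mgll* is the thin top band (1.42% of all hydrolase reads), and the *Daglb* band is taller at 24 h than at 6 h.

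*Dagla* (ENSMUSG00000035735, chr19:10245265-10304877, minus strand) and *Daglb* (ENSMUSG00000039206, chr5:143464584-143505942, plus strand) encode the lipases that form 2-AG, of which Dagla supplies most of it in adult brain. *Dagla* was at 7.74, 6.37 and 17.1 CPM in vehicle at 6 h and from 5.10 to 13.03 CPM (median 8.14 CPM) with CBD. A3 stood above all 12 CBD-treated libraries. Its log2 fold change was -0.38 (SE 0.31, 95% interval -1.02 to 0.27, edgeR FDR = 0.758) and turned to 0.25 without A3. At 24 h *Dagla* was at 6.26, 6.93 and 6.70 CPM in vehicle and from 2.82 to 11.9 CPM (median 6.63 CPM) with CBD, with a log2 fold change of 0.01 (SE 0.30, edgeR FDR = 0.997).

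*Daglb* was at 9.40, 2.12 and 7.46 CPM in vehicle at 6 h and from 2.47 to 10.5 CPM (median 6.53 CPM) with CBD. At 24 h it was at 6.26, 8.58 and 8.04 CPM in vehicle and from 3.62 to 12.4 CPM (median 9.48 CPM) with CBD. The groups overlapped at 6 h. At 24 h all libraries at 0.325, 0.75 and 1.5 µM lay above the vehicle libraries, the lowest of them at 8.69 CPM. Those at 3 µM ran from 3.62 to 9.19 CPM and overlapped vehicle. The same split of the dose groups was seen in the share of reads outside genes, given below. How many of all genes were separated in this way was not counted. *Daglb* had a log2 fold change of -0.03 (SE 0.42, edgeR FDR = 0.994) at 6 h and 0.29 (SE 0.26, edgeR FDR = 0.917) at 24 h. *Daglb* held 49.9% of the reads of both lipases (exact binomial 95% interval 47.1% to 52.6%). By time and treatment this share was 36.7% ± 15.9 (SD, n = 3) with vehicle and 42.3% ± 15.3 (SD, n = 12) with CBD at 6 h, and 53.3% ± 2.87 and 58.4% ± 6.16 at 24 h. The exons of *Daglb* share 2309 bases with *Rac1* on the opposite strand, and the end of its 1 annotated coding transcript lies inside *Rac1*. *Rac1* was at 202 ± 60.0 CPM. The strand setting of the counting is not given in the sources used here, and if strand was ignored, reads at this end could be counted for neither gene.

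For anandamide, the enzyme that releases it was the member with the smallest p over the 4 doses at 6 h. *Napepld* (ENSMUSG00000044968, chr5:21662901-21701396, minus strand) encodes N-acylphosphatidylethanolamine phospholipase D. Vehicle libraries of 6 h were at 4.42, 1.06 and 1.66 CPM, from 8, 2 and 6 reads. The libraries at 0.325 µM were at 2.77, 5.89 and 4.78 CPM and those at 0.75 µM were at 3.74, 8.17 and 4.67 CPM. Those at 1.5 µM were at 3.19, 2.89 and 7.56 CPM and those at 3 µM were at 3.35, 6.95 and 8.55 CPM. A2 and A3 lay below all 12 CBD-treated libraries and A1 lay among them. The log2 fold change was 1.16 (SE 0.52, 95% interval 0.09 to 2.22, edgeR FDR = 0.431), and it ran from 0.87 without A2 to 1.81 without A1. Along the dose steps it was 0.29 per step (SE 0.13, edgeR FDR = 0.796).

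At 24 h *Napepld* did not repeat this order. Vehicle was at 6.49, 5.94 and 4.69 CPM, and the 12 CBD-treated libraries ran from 2.08 to 8.42 CPM with a median of 5.33 CPM. The 3 libraries at 0.75 µM, at 2.17, 2.08 and 3.37 CPM, were below all vehicle libraries, while those at 0.325 µM, at 6.37, 6.87 and 8.42 CPM, were not. Its log2 fold change was -1.17 (SE 0.44, edgeR FDR = 0.477) at 0.75 µM and -0.26 (SE 0.31, 95% interval -0.88 to 0.37, edgeR FDR = 0.94) for the 4 doses. The change with CBD at 24 h minus that at 6 h was -1.42 (SE 0.57, edgeR FDR = 0.62). That comparison of the times called 0 of 7 members and 0.235% of all genes. At an unadjusted p below 0.05, *Napepld* alone passed it among the members, beside 6.52% of all genes. DESeq2 also called 0 of 7.

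*Faah* (ENSMUSG00000034171, chr4:115967145-116017926, minus strand) encodes fatty acid amide hydrolase, which ends the action of anandamide. It had 275 reads in all, 1 to 28 per library. In vehicle at 6 h it was at 5.53, 6.90 and 2.76 CPM, and with CBD it ran from 0.393 to 7.01 CPM with a median of 2.42 CPM. At 0.325 µM it was at 0.396, 0.393 and 2.61 CPM, from 1, 1 and 6 reads, below the 3 vehicle libraries. The log2 fold change at that dose was -2.11 (SE 0.78, edgeR FDR = 0.392), from -3.48 without A15 to -1.70 without A14. Over the 4 doses at 6 h it was -1.08 (SE 0.53, 95% interval -2.17 to 0.01, edgeR FDR = 0.494). At 24 h vehicle was at 2.09, 2.64 and 4.02 CPM and CBD ran from 0.804 to 6.87 CPM with a median of 3.19 CPM. The groups overlapped, with a log2 fold change of 0.13 (SE 0.44, 95% interval -0.77 to 1.04, edgeR FDR = 0.986). At 3 µM, with 2, 5 and 3 reads, it was -1.01 (SE 0.64, edgeR FDR = 0.652). At these counts the interval of *Faah* at 24 h ran from 0.585-fold to 2.06-fold. Changes inside it remain possible, and the smallest change that could be detected was not computed.

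*Fabp5* (ENSMUSG00000027533, chr3:10012548-10016607, plus strand) encodes a fatty acid binding protein that carries anandamide and other lipids through the cytosol. No other gene end matched its last 500 bases over 100 bases or more at 95% identity. In vehicle at 6 h it was at 23.8, 24.9 and 51.1 CPM. It was at 44.3, 39.6 and 54.4 CPM at 0.325 µM and at 53.5, 52.4 and 56.9 CPM at 0.75 µM. It was at 56.9, 35.1 and 37.8 CPM at 1.5 µM and at 29.2, 23.9 and 37.2 CPM at 3 µM. A3 lay among the middle doses, while A1 and A2 lay beside the libraries of 3 µM.

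The log2 fold change of *Fabp5* at 6 h was 0.30 for the 4 doses (SE 0.20, 95% interval -0.12 to 0.72, edgeR FDR = 0.67) and 0.65 at 0.75 µM (SE 0.25, edgeR FDR = 0.499). These values moved with single vehicle libraries. Without A1, the log2 fold change was 0.12 for the 4 doses (edgeR FDR = 0.914) and 0.47 at 0.75 µM (edgeR FDR = 0.714). Without A3, *Fabp5* was higher with the 4 doses (log2 fold change 0.80, edgeR FDR = 0.063), at 0.75 µM (1.15, edgeR FDR = 0.0187) and at 0.325 µM (0.92, edgeR FDR = 0.0988). Calls over all genes also became more frequent without A3, with 304, 173 and 108 of 12324 genes called in these comparisons, against 90, 9 and 24 of 12012 with it. Without A3, the 5 groups of 6 h also differed for *Fabp5* (edgeR FDR = 0.0443, against 0.652 with it), as they did for 70 genes in all, against 7. With a covariate for reads that fell outside genes, the change at 0.75 µM was 0.77 (edgeR FDR = 0.0893), and 119 of 12012 genes were called there, against 9 in the fit without it. Whether A3 or the pair A1 and A2 stands for vehicle cells was not tested.

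At 24 h *Fabp5* was the member with the smallest p over the 4 doses. Vehicle was at 70.9, 54.8 and 50.6 CPM. It was at 92.0, 85.1 and 72.4 CPM at 0.325 µM, at 65.6, 66.1 and 81.7 CPM at 0.75 µM, at 90.1, 70.4 and 60.9 CPM at 1.5 µM and at 55.1, 59.3 and 40.6 CPM at 3 µM. The 3 libraries at 0.325 µM were above all vehicle libraries, and those at 3 µM lay within or below the vehicle range. How many of all genes were separated in this way at 0.325 µM was not counted. The log2 fold change was 0.21 for the 4 doses (SE 0.14, 95% interval -0.07 to 0.50, edgeR FDR = 0.863) and 0.49 at 0.325 µM (SE 0.17, edgeR FDR = 0.444). It was -0.18 at 3 µM (SE 0.18, edgeR FDR = 0.778).

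Any difference among the 5 groups of 24 h had an edgeR FDR of 0.162 for *Fabp5*, the smallest of the members, and 0.0151 with no filter on low counts. This FDR was 0.056 without A17, 0.0979 without A27 and 0.0811 without A28. In these fits 801 genes were called with no filter (of 25432), 986 without A17 and 429 without A27, against 165 with all libraries, and the number was also above 165 without A28. The share of reads outside genes moved with the dose groups of 24 h. It was 21.4% ± 0.714 (SD, n = 3) in vehicle and 21.4% ± 0.487 at 3 µM, the groups where *Fabp5* was lowest, and 19.4% ± 0.266, 19.4% ± 0.608 and 19.7% ± 0.56 at 0.325, 0.75 and 1.5 µM. With that covariate the FDR was 0.887, and 1 gene in all was called. The step from vehicle to the 3 lower doses and the step to a lower share cannot be told apart at 24 h, while vehicle and 3 µM had the same mean share.

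More members were called over time than with CBD. Between vehicle at 24 h and vehicle at 6 h, in a fit of all 30 libraries, 3 of 7 members differed, all of them higher at 24 h (*Fabp5*, *Abhd12* and *Napepld*). Of all 12790 genes tested, 26.7% were called in this comparison and 12.5% were called higher, so the members' share stands against a large background. *Fabp5* went from 33.3 ± 15.4 to 58.8 ± 10.8 CPM (SD, n = 3; log2 fold change 0.76, SE 0.22, edgeR FDR = 0.0132). *Abhd12* went from 45.0 ± 1.45 to 58.6 ± 4.88 CPM (log2 fold change 0.38, SE 0.16, edgeR FDR = 0.078), with the 3 libraries of 24 h above the 3 of 6 h. *Napepld* went from 2.38 ± 1.79 to 5.71 ± 0.923 CPM (log2 fold change 1.33, SE 0.52, edgeR FDR = 0.0642), also without overlap. A share of 31.8% of all genes had vehicle libraries that did not overlap between the times.

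*Fabp5* overlapped between the times through A3, and its log2 fold change was 1.29 without A3 (edgeR FDR = 0.000353) and 0.59 without A1 (edgeR FDR = 0.0781). The calls of *Abhd12* and *Napepld* were lost when any of several single libraries was left out. Their log2 fold changes stayed above 0, from 0.34 to 0.46 for *Abhd12* and from 1.05 to 1.98 for *Napepld*. Without A1, A2, A3, A29 or A30 the FDR of *Abhd12* was 0.109, 0.115, 0.175, 0.127 and 0.198. Without A2, A3, A28 or A29 the FDR of *Napepld* was 0.21, 0.239, 0.162 and 0.102. Both calls were also lost with no filter on low counts (FDR 0.184 for *Abhd12* and 0.117 for *Napepld*), with the covariate (0.163 and 0.215) and with only the 6 vehicle libraries (0.157 and 0.12), in edgeR each time. The log2 fold changes of the members not called were 0.20 for *Abhd6* (SE 0.26), 0.23 for *Daglb* (SE 0.43), -0.72 for *Dagla* (SE 0.38) and -0.75 for *Faah* (SE 0.61), with edgeR FDR values from 0.182 to 0.753. Without A3 the log2 fold change of *Dagla* was -0.077.

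The same step of time in CBD-treated cells rests on 12 libraries at each time, none of them shared with the vehicle comparison, although the fit and its spread were. It was added after the values were seen. Here too 3 of 7 members differed, all higher at 24 h, beside 53.6% of all genes called and 26% called higher. *Fabp5* went from 43.4 ± 11.3 to 69.9 ± 15.3 CPM (SD, n = 12; log2 fold change 0.70, SE 0.11, edgeR FDR = 2.73e-06). *Abhd12* went from 51.9 ± 6.30 to 62.6 ± 7.92 CPM (log2 fold change 0.27, SE 0.08, edgeR FDR = 0.00359). *Daglb* went from 6.29 ± 2.55 to 9.44 ± 2.23 CPM (log2 fold change 0.56, SE 0.21, edgeR FDR = 0.0302). *Rac1*, which overlaps *Daglb*, fell by 0.71 on the log2 scale in this comparison (SE 0.09, edgeR FDR = 2.57e-08). *Napepld*, higher with time in vehicle, was at -0.09 (SE 0.24, edgeR FDR = 0.782) in CBD-treated cells, and that difference between vehicle and CBD is the one with an FDR of 0.62 above.

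*Fabp5* and *Abhd12* were thus called higher at 24 h in both vehicle and CBD-treated cells, with the limits above on the vehicle call of *Abhd12*, while *Abhd6*, the hydrolase next to *Abhd12*, was at 0.02 (SE 0.13) in CBD-treated cells. The labels give no batch, and time, hours in culture and handling of the 6 h and 24 h cells cannot be told apart.

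**Figure D4:**
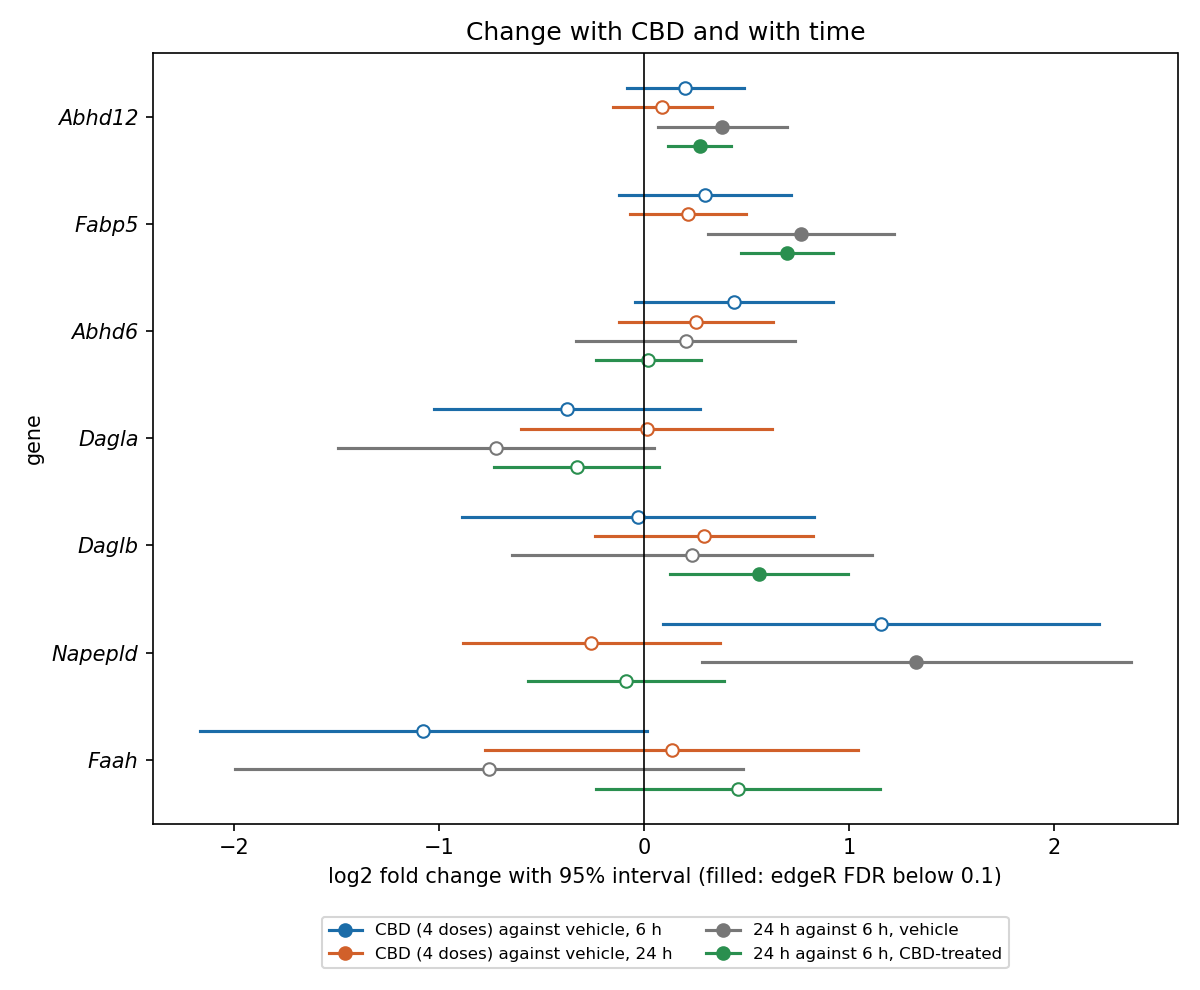
Log2 fold change of the 7 tested members with 95% intervals, for the 4 doses of CBD together against vehicle at 6 h (blue) and 24 h (orange) and for 24 h against 6 h in vehicle (grey) and in CBD-treated cells (green). Filled points have an edgeR FDR below 0.1. The filled points are *Abhd12* and *Fabp5* in both comparisons of time, *Napepld* in vehicle (1.33) and *Daglb* in CBD-treated cells (0.56), and no CBD comparison has one.

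Other genes of the endocannabinoid system were read from a list of 42, which holds other routes of synthesis, other enzymes of breakdown or oxidation, carriers, receptors, and partners and transducers of CB1. With the 4 doses of CBD, 0 rose and 1 fell of 21 tested at 6 h, beside 0.749% of all genes called, and 0 of 20 changed at 24 h, beside 0.107%. At an unadjusted p below 0.05 in edgeR, 3 of 21 passed at 6 h, beside 10.3% of all genes, and 1 of 20 at 24 h, beside 6.73%. The gene that fell was *Ptgs2*, the inducible cyclooxygenase that oxidizes 2-AG and anandamide as well as arachidonic acid (log2 fold change -0.97, SE 0.25, edgeR FDR = 0.0982). No single dose of 6 h called *Ptgs2*, and its smallest edgeR FDR there was 0.206, at 0.325 µM. It ran from 15.3 to 176 CPM over the 30 libraries. Whether its call holds without A3 or under another test was not tested. The median log2 fold change of the list was 0.06 at 6 h and -0.03 at 24 h, against -0.02 and -0.01 for all genes tested.

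Between vehicle of 24 h and 6 h, 5 of 22 tested genes of the list were higher and 2 were lower, beside 26.7% of all genes called and 12.5% called higher. The higher ones were *Gnao1* (1.37, SE 0.23) and *Gnai1* (1.05, SE 0.20), subunits of inhibitory G proteins, *Gnai2* (0.46, SE 0.10), the lipid transfer protein *Scp2* (0.73, SE 0.22) and the N-acyltransferase and phospholipase *Plaat3* (0.64, SE 0.24). The lower ones were *Ptgs2* (-2.12, SE 0.30) and *Gnai3* (-0.58, SE 0.21), all as log2 fold changes with edgeR FDR values from 6.94e-06 to 0.0569. *Scp2*, which has been described as a carrier of anandamide, thus shared its direction with *Fabp5*, the carrier among the members. The median log2 fold change of the list was 0.30, against -0.03 for all genes.

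By level, the other routes of synthesis were led by the phospholipases *Plcb1* (36.4 ± 5.94 CPM, SD, n = 30) and *Plcb4* (26.6 ± 5.54 CPM), which form diacylglycerol, and by *Plaat3* (34.9 ± 12.2 CPM). Of the enzymes of breakdown or oxidation, *Ptgs2* was at 47.0 ± 31.5 CPM, the lipase *Lipe* at 10.05 ± 3.24 CPM and *Naaa*, which hydrolyses palmitoylethanolamide, at 5.38 ± 2.14 CPM. *Naaa* was thus in the range of *Faah* and *Napepld*. Among carriers, *Scp2* was at 34.1 ± 10.3 CPM, while *Fabp4* was at 2.73 ± 1.69 CPM and *Fabp3* at 0.289 ± 0.494 CPM, below *Fabp5*. The transducers *Arrb2* (57.1 ± 12.98 CPM) and *Gnai1* (56.7 ± 17.9 CPM) were near *Abhd12*.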

How the data were processed

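The authors trimmed reads with Flexbar, mapped them to GRCm39 with STAR 2.7.5c and counted them per Ensembl gene with HTSeq 1.99.2, per the labels and the study's methods. They deposited these raw counts as 1 table per library, not normalized, whose summary lines entered neither library sizes nor tests. Symbols, positions and overlaps came from GENCODE M21 on GRCm38, and 51948 of 56941 genes had a symbol. The test was that of edgeR 4.0.16 in R 4.3.3 (filterByExpr, TMM, quasi-likelihood F-test across all genes, Benjamini-Hochberg over all genes tested, FDR below 0.1). The 15 libraries of each time were fitted with 1 mean for each group (12012 and 12118 genes), and times were compared in 30 libraries (12790 genes). DESeq2 1.42.0, RLE normalization, no filter, a covariate, fewer groups and leaving out each library were the alternatives. Log2 CPM for correlations used a prior count of 2. Gene ends were compared with blastn 2.17.0. Reads on genes per library set the floors, taken as 3 reads. Intervals of counts are at 95% and cover counting error only. Steps were tested on simulated data.

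The members and the lists of other genes and markers were chosen with earlier results of these data known. Named genes were the 9 members, the genes of the list called in any comparison of CBD or of vehicle over time, the 3 highest of each class of the list, and for each tested member the 2 genes most correlated with it. The receptors with few or no reads, *Cnrip1*, *Rac1* and the genes of the last comparison over time were named after their values were seen. No promoter was measured here and no sequence is printed.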

Additional observations from a re-analysis of the deposited data

How the results depend on the processing

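At the group sizes of 3 used here, a count of 0 called members says little about genes with few reads, and a pairing is absent from the labels. No paired analysis was possible because each library has a number of its own and none recurs in another group. For single members, 173 of 181 values under another test, normalization, filter, covariate or choice of libraries kept their direction and side of the threshold. With 1 library left out, 907 of 945 did so. A member to which DESeq2 gave no adjusted p was counted as not called. For counts, levels and shares, 91 of 97 and 316 of 330 stayed within 1.5 times or within the spread. With the covariate, 1 member was called at 0.75 µM of 6 h and 1 among the 5 groups of 6 h, both *Fabp5*, and *Abhd6* in CBD-treated cells over time went to -0.0018. Between the vehicle groups, 1 member was called with no filter, 1 with the covariate and 1 with only the 6 vehicle libraries, *Fabp5* each time and neither *Abhd12* nor *Napepld*. Among the 5 groups of 24 h, 1 member was called with no filter. With 1 library left out, the called members ranged from 0 to 1 at 0.325 µM, at 0.75 µM and with the 4 doses of 6 h. They ranged from 0 to 1 among the 5 groups at either time, and from 1 to 3 between the vehicle groups. Over time in CBD-treated cells they ranged from 3 to 4, and the added member was *Faah*, with an edgeR FDR down to 0.0756. The *Mgll* share of 24 h ranged from -0.322 to 0.78 percentage points between CBD and vehicle, with the sign turned in 4 of 15. Among single members the sign turned for *Dagla* and *Daglb* with CBD at 6 h (-0.61 to 0.25 and -0.40 to 0.28), *Faah* and *Dagla* at 24 h (-0.080 to 0.43 and -0.065 to 0.081), *Daglb* between the vehicle groups (-0.12 to 0.54), *Abhd6* and *Napepld* over time with CBD (-0.029 to 0.088 and -0.16 to 0.071), and for the difference of the CBD change between times in *Abhd6*, *Fabp5* and *Dagla* (-0.36 to 0.017, -0.58 to 0.11 and -0.24 to 0.64). The cause was not tested.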

Other observations

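For each of the 7 tested members, the 2 other genes most like it were found by Pearson's r of log2 CPM over 30 libraries, after the mean of each of the 10 groups was subtracted, among 12789 other genes. These values are a description, since the libraries share their depth and preparation and the highest of many were taken. *Fabp5* was most like *Cox8a* (r = 0.922) and *Ndufb5* (r = 0.89), both genes of the respiratory chain. *Dagla* was most like *Plxna1* (r = 0.831) and *Qrsl1* (r = 0.805), and *Daglb* was most like *Spata1* (r = 0.799) and *Atp6v1e1* (r = 0.75). *Abhd6* was most like *Mov10* (r = 0.768) and *Kansl2* (r = 0.732), and *Abhd12* was most like *Uck1* (r = 0.688) and *Papss1* (r = 0.674). *Napepld* was most like *Chd6* (r = 0.756) and *Lgals9* (r = 0.748), and *Faah* was most like *Tmco3* and *Slc22a18* (both r = 0.728). Among the members themselves, r ran from -0.432 for *Fabp5* and *Abhd12* to 0.648 for *Abhd6* and *Napepld*.

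In CBD-treated cells, 10 of 22 tested genes of the list of other endocannabinoid genes were higher at 24 h than at 6 h and 5 were lower, beside 53.6% of all genes called and 26% called higher. *Gnao1* (log2 fold change 1.16, SE 0.12) and *Plaat3* (0.73, SE 0.12) were among the higher ones. *Pparg*, the nuclear receptor of fat cell differentiation (-0.98, SE 0.29), and *Ptpn22* (-1.39, SE 0.36) were among the lower ones, with edgeR FDR values of 0.0062 and 0.00176.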
